A study of Mus musculus with 6 samples.

Results

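The Hedgehog genes described here are 9 of the 27998 genes in the deposited count table: the ligand Shh, the receptor Ptch1, the transducer Smo, the transcription factors Gli1, Gli2 and Gli3, the secreted ligand antagonist Hhip, and the co-receptors Gas1 and Boc. They were taken as a list of named genes, with no threshold on a measured value, but the list was drawn up with earlier results of these data known. All 9 were found in the table and their levels are given in the cell types that the authors assigned.

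Sonic hedgehog is secreted by newborn retinal ganglion cells, the output neurons of the retina and the earliest retinal neurons to form. Bound by the ligand, Ptch1 releases its block on Smo, and Gli transcription factors then switch on target genes in the receiving progenitors, among them Gli1, Ptch1 and Hhip themselves. Gli1 is made almost only where the pathway is active and is its usual readout, Gli2 acts mainly as the activator and Gli3 mainly as the repressor, and Gas1 is known to be repressed by the pathway. In the embryonic retina this signal keeps progenitors dividing and limits the production of more ganglion cells.

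The study profiled single cells of mouse retina at embryonic day 14 with the 10x Genomics 3' method (version 2), in 6 libraries of 3 groups with 2 libraries each. Bax null lacks the cell death gene Bax and keeps Atoh7, a factor needed to form ganglion cells. Bax null Atoh7 null lacks both genes, and Bax het Atoh7 null lacks Atoh7 and keeps 1 copy of Bax. No library analysed here had both genes intact, so every group carries at least 1 altered Bax copy and each contrast is drawn between mutants. The labels name no strain, allele, sex or number of animals per library and do not say whether replicates came from separate litters, so p-values measure only the spread between these libraries.

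The 6 libraries held 67050 cells, between 9269 and 14730 each, with 22463515 to 66594431 UMIs (unique molecular identifiers, the counted RNA molecules). The median number of UMIs per cell was 5660.5 and 6804 for Bax null, 2632 and 2206 for Bax het Atoh7 null, and 1940 and 1634 for Bax null Atoh7 null, so the group with Atoh7 is also the deeper one; in the contrasts with Bax null, genotype and library batch cannot be told apart. Atoh7 had 0 UMIs in all 4 Atoh7 null libraries and 376 and 458 for Bax null. Bax stood at 144 and 108 CPM for Bax het Atoh7 null, 17.1 and 15 for Bax null, and 47.7 and 11 for Bax null Atoh7 null, so, by its Bax level, replicate 1 of the Bax null Atoh7 null label goes partly against its label; reads outside a deleted part would still be counted. The 2 Bax null Atoh7 null libraries shared 2596 cell barcodes, 89.4% of them with the same cell type. The other 14 pairs of libraries shared 126 to 223 barcodes, 34.3% to 46.0% of them with the same type. Member calls in progenitors, ganglion cells and neurogenic cells, and Shh over all cells, are therefore also given without the cells of those 2596 barcodes. Shh within ganglion cells is not. All 10 ganglion cell markers and 9 of 10 progenitor markers (all but Hes5) were highest in the cells of their label.

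Levels are given as CPM, a gene's UMIs scaled to a fixed total of UMIs of a cell type in a library. Between groups they were scaled by TMM, which assumes that most genes do not differ, and tested with edgeR's quasi-likelihood F test with Benjamini-Hochberg adjustment over all genes tested; a gene is called at an adjusted p under 0.05. The scaling matters here. In progenitors, library totals in place of TMM moved the median log2 fold change of all genes from 0.01 to 0.64 for Bax null Atoh7 null against Bax null and from 0.00 to 0.54 for Bax het Atoh7 null against Bax null, and moved the share of calls that were higher from 49.8% to 90.6% and from 50.1% to 90.1%. Folds below are therefore relative to the median gene, and a direction that turns with the scaling is named where it is given. The contrasts with Bax null share the same 2 Bax null libraries.

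Shh was read almost only in the ganglion cells of the Bax null libraries. Over the 6 libraries there were 59 Shh UMIs, of which 55 lay in ganglion cells and 4 in progenitors, with none in neurogenic cells (progenitors that are leaving the cell cycle), cones or cells labelled horizontal. In ganglion cells the counts were 21 and 32 UMIs for Bax null (2.0 and 2.93 CPM), 0 and 2 for Bax null Atoh7 null (0 and 0.879 CPM), and 0 and 0 for Bax het Atoh7 null. Both Bax null libraries were thus above all 4 others. Bax null averaged 2.47 ± 0.657 CPM (SD, n = 2), against 0.439 ± 0.621 CPM for Bax null Atoh7 null.

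Pooled over libraries, Shh in ganglion cells was 5.93-fold higher in Bax null than in Bax null Atoh7 null, with a 95% counting interval of 1.56 to 50.3. Against Bax het Atoh7 null it was at least 1.58-fold higher, taking as the floor 3 UMIs in the shallower library of that group, or 1.57 CPM. Intervals and floors cover counting error only. The count filter left Shh out of the fit for ganglion cells. Without the filter edgeR gave a log2 fold change of -3.10 (adjusted p 0.0116) in the Bax null Atoh7 null contrast and an adjusted p of 0.00382 for Bax het Atoh7 null, whose libraries are both at 0 so that the fitted fold is no bound. DESeq2 gave adjusted p 0.0737 and 0.00855 for the same contrasts, so the first call depends on the tool.

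**Figure D1:**
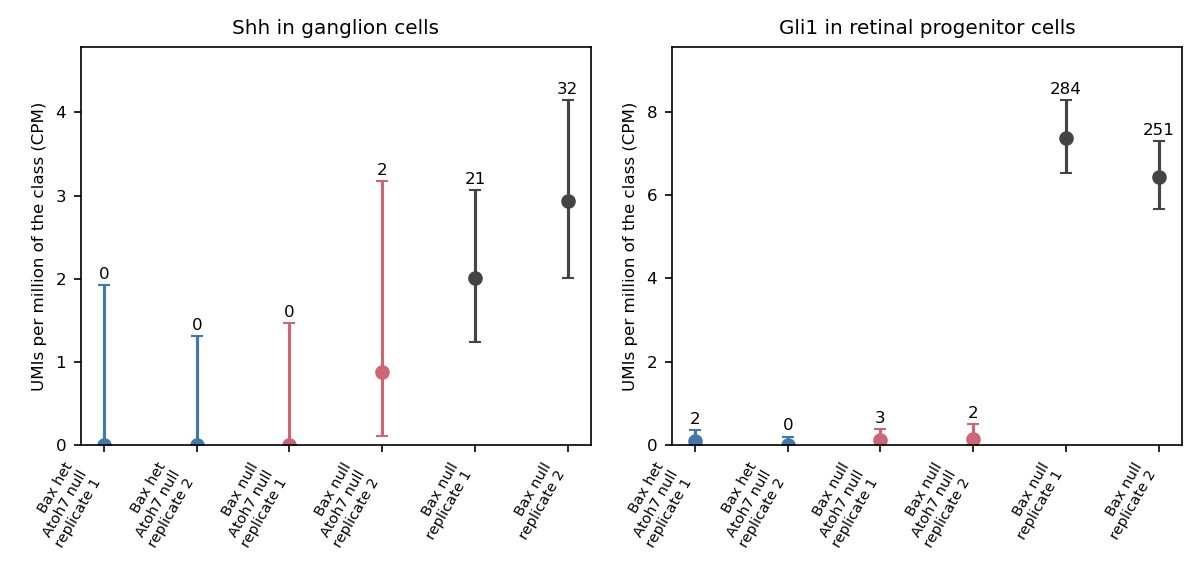
Shh in ganglion cells (left) and Gli1 in retinal progenitor cells (right), as plain CPM of the class in each of the 6 libraries. Points are libraries, bars are exact 95% Poisson intervals and the number above each bar is the UMI count; the Bax null libraries hold 21 and 32 Shh UMIs and 284 and 251 Gli1 UMIs, and the other 4 libraries hold at most 2 and 3.

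Ganglion cells were also fewer. They made up 17.3% and 16.9% of the cells in Bax null, 7.83% and 9.63% for Bax null Atoh7 null, and 6.93% and 9.31% for Bax het Atoh7 null. In an edgeR model of cell counts over 5 cell types their share fell by 0.97 (SE 0.14, adjusted p 1.77e-05) and by 1.07 (SE 0.14, adjusted p 6.05e-06) on the log2 scale. Summed over all cells of a library, Shh therefore combines the number of ganglion cells with the Shh of each, and these cannot be told apart in that sum. Its TMM-scaled level was 0.449 and 0.662 CPM for Bax null (22 and 34 UMIs), 0 and 0.0725 for Bax null Atoh7 null (0 and 2 UMIs), and 0 and 0.0315 for Bax het Atoh7 null (0 and 1 UMI). Shh fell by 4.04 on the log2 scale in Bax null Atoh7 null (SE 0.76, adjusted p 0.00233, edgeR) and by 4.88 for Bax het Atoh7 null (SE 0.87, adjusted p 0.00177) relative to Bax null. Leaving out single libraries moved these values between -7.50 (without Bax null Atoh7 null replicate 2, which holds both UMIs) and -2.89 (without replicate 1 of that group), and between -7.47 (Bax het Atoh7 null replicate 2 left out) and -4.01 (its replicate 1 left out), with the highest adjusted p at 0.0186. Without the shared-barcode cells the values were -7.32 (adjusted p 0.00235) and -4.87 (0.00234). The first is close to the -7.50 fitted without the library that holds both UMIs. The ganglion cell values of Shh in Bax null Atoh7 null rest on the same 2 UMIs and were not recomputed without those cells. Between the Atoh7 null groups the difference was 0.84 (adjusted p 0.872), and its sign turned when libraries were left out.

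Per cell, Shh was rare in every library. A Shh UMI was seen in 1.19% and 1.97% of Bax null ganglion cells (95% Wilson intervals 0.776% to 1.80% and 1.39% to 2.79%) at median depths of 5578 and 6683 UMIs, while the mean share was 0.0264% of Bax null progenitors, at 5869 and 6977 UMIs, and 0 of Bax null neurogenic cells. With every cell thinned to 1000 UMIs the shares in ganglion cells were 0.227% and 0.385% for Bax null and 0 in the other 4 libraries, where a count of 0 allows up to 0.450%, 0.284%, 0.280% and 0.277%. At that matched depth the Bax null shares rest on 4 and 6 cells. Taken library by library, each 0 allowed a share that lies within the 95% Wilson intervals of both Bax null libraries. The 4 libraries at 0 were not pooled for this, and the sums over all reads of the class carry the comparison.

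Within the Bax null ganglion cells, Shh was concentrated in a few of the authors' clusters. The 4 clusters with most Shh UMIs (numbers 70, 75, 121 and 131) held 44 of the 53 UMIs, at 5.56 and 7.25 CPM in the 2 libraries. They were chosen on Shh, so this is a description. Their leading genes were Crnde, Irx3, Fgf12, Irx5, Rgs10, Nell2, Ret, Rgs6, Lhfp and Lmo2. Sncg, a synuclein of ganglion cells, stood at 4911 CPM there and 1008 CPM in the other ganglion cells, the RNA-binding protein gene Rbpms at 245 and 67.3 CPM, and the neurofilament gene Nefl at 2448 and 978 CPM. Of the 10 ganglion cell markers, 8 were higher there, while the transcription factor genes Pou4f2 (56.8 and 92.1 CPM) and Isl1 (554 and 792 CPM) were lower. Atoh7, which marks the transition into the ganglion cell fate, stood at 0.879 and 12.6 CPM.

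These clusters made up 23.6% and 24.9% of ganglion cells in Bax null, 2.17% and 2.37% for Bax null Atoh7 null, and 0.600% and 0.947% for Bax het Atoh7 null. Both Shh UMIs of Bax null Atoh7 null replicate 2 lay in its 27 cells of these clusters, at 23.3 CPM, under the 34.9 CPM that 3 UMIs would give there. The ganglion cell class of the Atoh7 null libraries thus held few cells of the kind in which Shh was read, and its part in the Shh difference was not tested. Over 140 clusters with at least 200000 UMIs, the genes most like Shh by Pearson's r of log2(CPM + 1), among 12592 genes, were Ppp1r1c (0.94), Mstn (0.93), Tmem27 (0.86), Ube2ql1 (0.85) and Gm3830 (0.84). In the 107 such clusters of the Bax null libraries alone they were Mstn (0.93), Ppp1r1c (0.92), Cbln2 (0.89), Gpr22 (0.86) and Nell2 (0.85). Clusters share libraries and depth, and these values describe 59 Shh UMIs, or 56 for Bax null.

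The response genes were next compared in progenitors, where 65.6% of Ptch1, 71.9% of Smo, 81.9% of Gli1, 75.2% of Gli2, 80.3% of Gli3, 61.5% of Hhip, 80.8% of Gas1 and 73.6% of Boc UMIs lay. Shh was not tested there. Of the 8 other members, 6 were called for Bax null Atoh7 null against Bax null: Smo and Gas1 rose and Ptch1, Gli1, Gli2 and Hhip fell. For Bax het Atoh7 null against Bax null, 5 were called: Gas1 rose and Ptch1, Gli1, Gli2 and Hhip fell. Of 13396 genes tested, 26.8% rose and 27.1% fell in the first contrast and 26.6% rose and 26.5% fell in the second. With so many of all genes called each way, these counts say little about the list by themselves, and the sizes of the single members are what follows. Between the 2 Atoh7 null groups 0 of 8 members were called, where 0.0597% of genes rose and 1.95% fell; DESeq2 also called 0, and 0 had an unadjusted p under 0.05 with edgeR.

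Gli1, the target gene most closely tied to active signalling, showed the largest difference among the members. Progenitors held 284 and 251 Gli1 UMIs for Bax null, 3 and 2 for Bax null Atoh7 null, and 2 and 0 for Bax het Atoh7 null, or 7.36 and 6.44, 0.134 and 0.142, and 0.102 and 0 CPM. Every Bax null value lay far above every other. Gli1 fell by 6.21 on the log2 scale in Bax null Atoh7 null (SE 0.34, adjusted p 1.43e-06, with both libraries under both of Bax null) and by 7.39 for Bax het Atoh7 null (SE 0.39, adjusted p 1.46e-06). As pooled counts, Bax null was 50.4-fold higher than Bax null Atoh7 null (interval 21.5 to 156) and 128-fold higher than Bax het Atoh7 null (35.3 to 1061). The values were -6.53 and -7.39 without the shared-barcode cells, -6.23 and -7.39 without replicate 1 of the libraries labelled Bax null Atoh7 null, and -5.60 and -6.88 with library totals.

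The share of progenitors with a Gli1 UMI was also compared at matched depth. Thinned to 1000 UMIs per cell, it was 0.693% and 0.768% for Bax null, 0.0111% and 0.0157% for Bax null Atoh7 null, and 0 of 6117 and of 6571 cells in Bax het Atoh7 null, which allows up to 0.0490% and 0.0457%. Unthinned, the Bax null shares were 4.29% and 4.25%, against a mean of 0.498% for Bax null ganglion cells. Thinning left out 119 and 116 progenitors in Bax null and 515 and 683 for Bax null Atoh7 null.

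Ptch1, which is both the Shh receptor and a target gene, differed much less. Its TMM-scaled level in progenitors was 15.5 and 16.8 CPM for Bax null, 10.9 and 11.8 for Bax null Atoh7 null, and 14.1 and 12.5 for Bax het Atoh7 null. Both Bax null libraries lay above the rest. Ptch1 fell by 0.51 for Bax null Atoh7 null (SE 0.11, adjusted p 0.00323) and by 0.28 for Bax het Atoh7 null (SE 0.11, adjusted p 0.0485). With library totals the values became 0.12 (adjusted p 0.390) and 0.25 (0.0833), so the direction rests on the scaling. The second call was lost under 9 of its other alternatives, with any one of 4 libraries left out (adjusted p 0.0529 and 0.239 without Bax het Atoh7 null replicates 1 and 2, 0.0867 and 0.255 without Bax null replicates 1 and 2).

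Hhip, which binds and sequesters the ligand, was a rare RNA in progenitors. There were 72 and 96 UMIs for Bax null, 20 and 19 for Bax null Atoh7 null, and 15 and 13 for Bax het Atoh7 null, at 2.44 and 3.25, 0.784 and 1.09, and 0.691 and 0.672 CPM (TMM-scaled). The groups with and without Atoh7 did not overlap. Hhip fell by 1.63 (SE 0.27, adjusted p 0.000865) and fell by 2.05 (SE 0.29, adjusted p 0.000353), and both calls held under all 17 alternatives run. Among the 17 is the difference between progenitors and ganglion cells within libraries. Hhip in ganglion cells enters that difference, so it is no check on the progenitor calls.

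The Gli factors that carry the signal behaved unequally. Gli2, the activator, stood at 19.8 and 20.7 CPM (TMM-scaled) for Bax null, 12.1 and 8.64 for Bax null Atoh7 null, and 10.5 and 9.61 for Bax het Atoh7 null. It fell by 0.95 (SE 0.14, adjusted p 0.000467) and by 1.01 (SE 0.14, adjusted p 0.000362), with both Bax null libraries above all others. With library totals the values were -0.32 (adjusted p 0.0415) and -0.47 (0.00834). Gli3, the repressor, stood at 29.8 and 29.3, 28.0 and 31.5, and 29.2 and 28.4 CPM in the same order. Its values were 0.00 (SE 0.084, adjusted p 0.972) and -0.04 (SE 0.084, adjusted p 0.731), and 0.64 (adjusted p 0.000400) and 0.50 (0.00230) with library totals.

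Smo and the co-receptors did not follow the targets. Gas1 stood at 38.0 and 33.9 CPM (TMM-scaled) for Bax null, 63.9 and 67.4 for Bax null Atoh7 null, and 62.1 and 58.1 for Bax het Atoh7 null, all 4 above both. It rose by 0.87 (SE 0.087, adjusted p 5.28e-05) and by 0.74 (SE 0.087, adjusted p 0.000133), and by more, 1.5 and 1.28, with library totals. Smo stood at 46.4 and 50.1, 58.7 and 59.1, and 54.6 and 53.7 CPM in the same order. It rose by 0.29 for Bax null Atoh7 null (SE 0.077, adjusted p 0.0110), a call lost without Bax null replicate 1 (adjusted p 0.144) and with thinned counts (0.0567), and was 0.17 higher in Bax het Atoh7 null (adjusted p 0.0936). Boc stood at 3.72 and 3.18, 4.90 and 3.57, and 4.24 and 3.36 CPM, with values of 0.32 (SE 0.20, adjusted p 0.214) and 0.14 (SE 0.21, adjusted p 0.585); with library totals they were 0.94 (adjusted p 0.00134) and 0.68 (0.0114).

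Without the cells of shared barcodes, the calls in progenitors of Bax null Atoh7 null were the same 6: Ptch1 at -0.45 (adjusted p 0.0201), Smo at 0.35 (0.00820), Gli1 at -6.53 (6.36e-06), Gli2 at -0.89 (0.000692), Hhip at -1.54 (0.00287) and Gas1 at 0.78 (0.000249). In ganglion cells Smo stood at 0.92 (0.00324), Hhip at 4.51 (1.35e-05) and Gas1 at 1.03 (0.0269), and in neurogenic cells Smo at 0.41 (0.00922), Gas1 at 0.53 (0.0297) and Gli2 at -1.17 (0.000538).

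**Figure D2:**
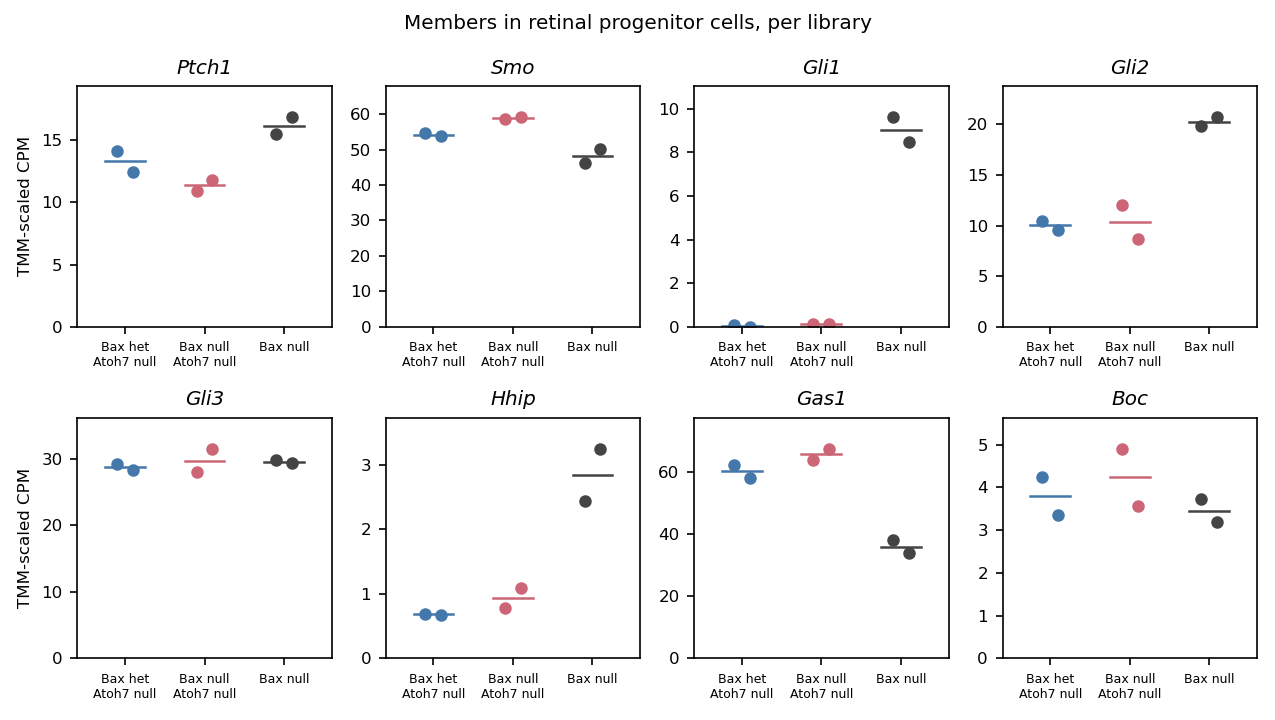
TMM-scaled CPM of 8 members in retinal progenitor cells; points are the 2 libraries of each group and lines their means, with an axis from 0 for each gene. Gli1, Gli2, Hhip and Ptch1 are highest in the 2 Bax null libraries, Gas1 and Smo lowest there, and Gli3 and Boc overlap or nearly overlap between groups.

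**Figure D3:**
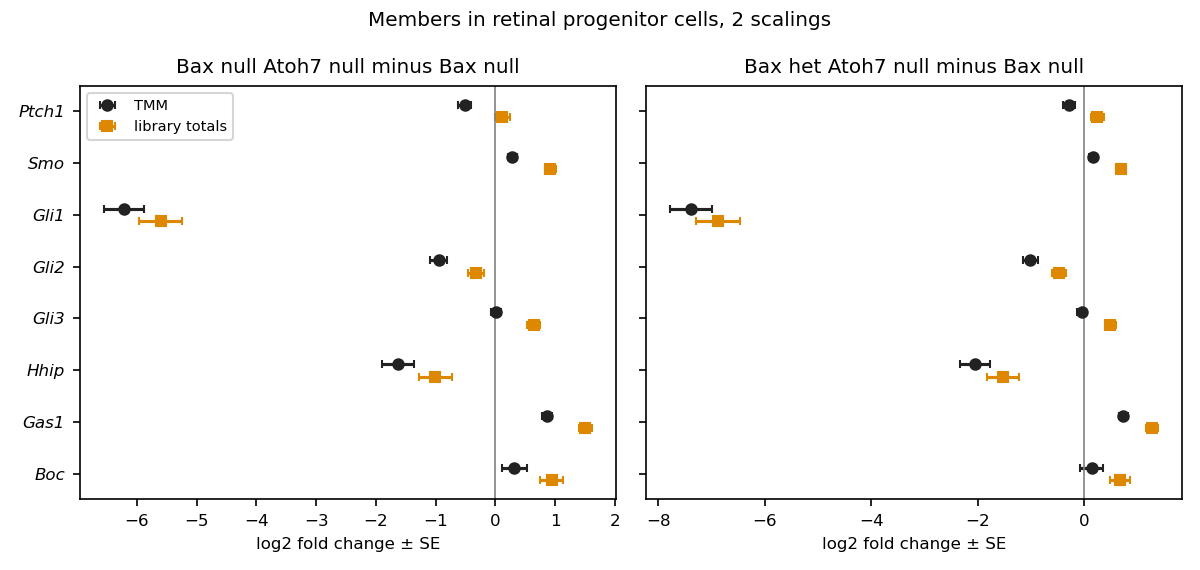
Log2 fold changes of 8 members in retinal progenitor cells against Bax null with their standard errors, with TMM scaling (circles) and with library totals (squares). Gli1, Gli2 and Hhip stay below 0 and Smo, Gas1 and Boc above 0 under both scalings, while Ptch1 lies at -0.51 and -0.28 with TMM and at 0.12 and 0.25 with library totals.

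The promoters of the member whose call turned with the scaling and of the member that rose most in progenitors, Ptch1 and Gas1, are shown because the pathway is known to act on these genes in opposite directions. They are the 250 bases before the start of transcription from RefSeq (GRCm38.p6), both on the minus strand, Ptch1 at chr13:63565736-63565985 and Gas1 at chr13:60177536-60177785, and the Ptch1 window lies inside the longest annotated gene body, upstream of an inner start. They are printed 5′ to 3′ in lower case, with no capitals because no motif match was found.
Ptch1: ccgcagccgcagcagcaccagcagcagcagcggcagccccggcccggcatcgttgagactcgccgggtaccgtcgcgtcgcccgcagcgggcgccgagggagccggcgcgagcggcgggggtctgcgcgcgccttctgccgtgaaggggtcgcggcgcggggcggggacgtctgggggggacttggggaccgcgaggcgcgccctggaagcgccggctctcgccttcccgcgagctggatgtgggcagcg
Gas1: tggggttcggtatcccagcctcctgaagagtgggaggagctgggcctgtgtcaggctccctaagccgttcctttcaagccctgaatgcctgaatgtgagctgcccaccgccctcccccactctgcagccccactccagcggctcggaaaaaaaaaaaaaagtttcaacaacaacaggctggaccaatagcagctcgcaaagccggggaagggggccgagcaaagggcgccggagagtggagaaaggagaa
The GLI consensus GACCACCCA, searched on both strands, occurred in 0 of the 6 members with a window in the table (Ptch1, Smo, Gli2, Gli3, Hhip and Gas1), exactly or with 1 mismatch, and in 0.225% and 5.79% of 32851 windows of the same length. This says only that these letters are not in these windows.

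Neurogenic cells, the intermediate between progenitors and neurons, showed Gli1 as well. They held 38 and 57 Gli1 UMIs for Bax null (3.35 and 4.04 CPM) and 0 in each of the other 4 libraries, so Bax null was at least 5.44-fold above Bax null Atoh7 null and, against Bax het Atoh7 null, at least 6.59-fold above it, with 3 UMIs in the shallower library of each group as the floor. Of 7 members tested there, 4 were called against Bax null in Bax null Atoh7 null (Smo and Gas1 rose, Gli1 and Gli2 fell) and 3 for Bax het Atoh7 null (Boc rose, Gli1 and Gli2 fell), where 47.3% and 47.1% of all genes were called. Gli2 stood at 17.2 and 16.5 CPM (TMM-scaled) for Bax null, 7.60 and 5.28 for Bax null Atoh7 null, and 7.07 and 5.73 for Bax het Atoh7 null. It fell by 1.36 (SE 0.20, adjusted p 0.000164) and by 1.40 (SE 0.20, adjusted p 0.000153). The calls of Smo, Gas1 and Boc were not made by DESeq2 (adjusted p 0.0861, 0.0635 and 0.148), which called 2 members in each contrast.

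Ptch1 in neurogenic cells was 13.4 and 13.5 CPM (TMM-scaled) for Bax null, 12.3 and 11.5 for Bax null Atoh7 null, and 13.1 and 15.9 for Bax het Atoh7 null. Its values were -0.17 (SE 0.16, adjusted p 0.392) and 0.11 (SE 0.15, adjusted p 0.565), and 0.41 (adjusted p 0.0389) and 0.63 (0.00356) with library totals. The direction of Ptch1 for Bax null Atoh7 null thus turned with the scaling there.

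In ganglion cells every called member was higher than in Bax null. The count filter bears on this direction. It kept Hhip through the Atoh7 null libraries, where Hhip was high, and left out Shh, Gli1 and Gli2, which were lower in those libraries. Of 5 members tested, 3 were called in Bax null Atoh7 null (Smo, Hhip, Gas1) and 4 for Bax het Atoh7 null (also Ptch1), where 52.7% and 50% of all genes were called in either direction. Progenitor markers moved with these groups in the same class: their summed level was 1346 to 1908 CPM in the ganglion cells of the 4 Atoh7 null libraries and 781 and 579 CPM in those of the Bax null libraries, and of the 10 markers 7 lay above both Bax null libraries in all 4, 2 overlapped and Hes1 lay below. These marker levels are plain CPM. Without TMM the median ganglion cell gene was already 0.63 and 0.50 higher, on the log2 scale, in the 2 contrasts with Bax null. The part of the markers in the member results was not tested. Hhip stood at 10.0 and 9.14 CPM (TMM-scaled) for Bax null Atoh7 null (29 and 25 UMIs), 3.83 and 5.26 for Bax het Atoh7 null (8 and 16 UMIs), and 0.612 and 0.240 for Bax null (5 and 2 UMIs). All 4 Atoh7 null libraries were above both Bax null libraries. Hhip rose by 4.41 (SE 0.42, adjusted p 2.91e-06) and by 3.38 (SE 0.52, adjusted p 0.000169), and the 2 Atoh7 null groups differed by 1.03 (SE 0.34, adjusted p 0.179).

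Hhip thus fell in progenitors and rose in ganglion cells in the same libraries. Testing the difference itself, as the interaction of group and cell type with library as a block, gave -6.12 for Bax null Atoh7 null (adjusted p 1.38e-12) and -5.47 for Bax het Atoh7 null (adjusted p 1.16e-08), progenitors minus ganglion cells. In that test 15.7% and 15.2% of all genes were called, and 3 members (Ptch1, Smo and Hhip) in each contrast. Over all cells of a library the opposite directions met, and Hhip was -0.28 (adjusted p 0.272) and -1.01 (0.00472).

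Most Hhip UMIs of ganglion cells lay in 1 of the authors' clusters, number 62, picked for that reason. It held 26 and 15 of the 29 and 25 ganglion cell Hhip UMIs in Bax null Atoh7 null, 5 and 13 of 8 and 16 for Bax het Atoh7 null, and 3 and 1 of 5 and 2 for Bax null. In its 592 cells of the 4 Atoh7 null libraries the leading genes were Trim66, Cebpb, Atf3, Nupr1, Slc7a11, Trib3, Slc7a3, Chac1, Cth and Sesn2, several of them genes of the amino acid and integrated stress responses. The cluster made up 16.6% and 18.4% of ganglion cells in Bax null Atoh7 null, 10.9% and 11.3% for Bax het Atoh7 null, and 2.43% and 1.97% for Bax null. Within the cluster Hhip stood at 57.8 and 36.4, 22.7 and 40.8, and 11.9 and 4.64 CPM in that order. Outside it, ganglion cells held 3 and 10, 3 and 3, and 2 and 1 UMIs, or 1.45 and 5.37, 1.77 and 1.2, and 0.196 and 0.0935 CPM, so there too all 4 Atoh7 null libraries were above both Bax null libraries, on few counts. The size of the cluster moved with Hhip, and its part in the rise was not tested.

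**Figure D4:**
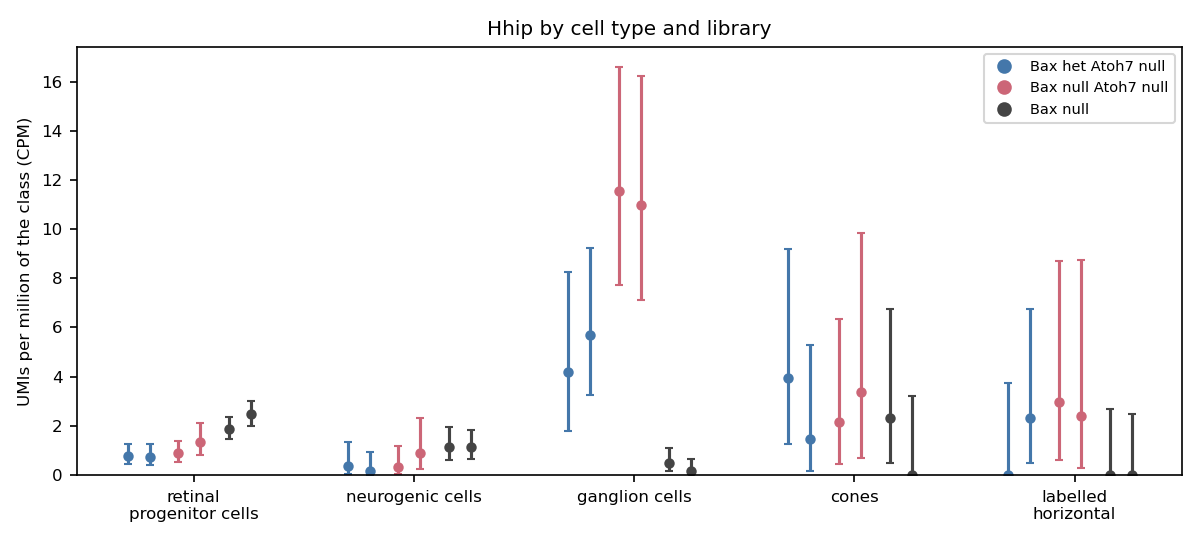
Hhip as plain CPM of each cell type in each library, with exact 95% Poisson intervals. In ganglion cells the Bax null Atoh7 null and Bax het Atoh7 null libraries lie above both Bax null libraries, and in progenitors the Bax null libraries lie above the other 4.

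Ptch1 in ganglion cells stood at 7.22 and 8.86 CPM (TMM-scaled) for Bax null, 12.1 and 11.3 for Bax null Atoh7 null, and 14.9 and 15.1 for Bax het Atoh7 null, with both Bax null libraries lowest. It was 0.54 higher in Bax null Atoh7 null (SE 0.21, adjusted p 0.0503) and rose by 0.90 for Bax het Atoh7 null (SE 0.21, adjusted p 0.00323). Smo stood at 12.9 and 12.3, 25.5 and 21.2, and 19.2 and 24.0 CPM in the same order. It rose by 0.89 (SE 0.17, adjusted p 0.000725) and by 0.80 (SE 0.18, adjusted p 0.00228), the second lost without Bax het Atoh7 null replicate 2 (0.0861). Gas1 stood at 5.51 and 4.55, 11.7 and 9.51, and 15.3 and 8.55 CPM. It rose by 1.08 (SE 0.29, adjusted p 0.00749) and by 1.18 (SE 0.29, adjusted p 0.00527), the first lost without Bax null Atoh7 null replicate 1 (0.0602), the second without Bax het Atoh7 null replicate 1 (0.0975), and both with counts thinned to the smallest library (0.135 and 0.0513). The remaining 4 members were too rare in ganglion cells for the count filter. Gli1 had 12 and 7 UMIs there in Bax null and 0 in the other 4 libraries. Gli2 stood at 6.24 and 4.67 CPM (TMM-scaled) for Bax null. It was at 2.07 and 1.83 CPM for Bax null Atoh7 null, and at 2.88 and 1.32 CPM for Bax het Atoh7 null.

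Cones and cells labelled horizontal held few UMIs of these genes, and only Ptch1, Smo and Gas1 were tested. In cones 1 member was called in Bax null Atoh7 null (Smo, 0.82 higher, SE 0.26, adjusted p 0.0208) and 0 for Bax het Atoh7 null, where 28.1% and 27.5% of all genes were called. In Bax het Atoh7 null 1 had an unadjusted p under 0.05 with edgeR. With library totals 3 members were called in both contrasts. With that scaling 4649 and 3835 of all 9421 genes were called, 89.5% and 89.1% of these higher. In cells labelled horizontal Gas1 was called in both, 0.79 higher (SE 0.25, adjusted p 0.0214) and 0.76 higher (SE 0.24, adjusted p 0.0226), where 29.2% and 30.2% of all genes were called. DESeq2 called 0 members in both of these cell types. Over all cells of a library 7 and 6 of the 9 members were called, where 56.4% and 55.8% of all genes were.

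Cell types were also ordered within each library, on plain CPM, which the scaling between libraries does not touch. Smo and Gli3 were highest in progenitors and next in neurogenic cells in all 6 libraries. In Bax null, Smo was 36.8 ± 1.79 CPM (SD, n = 2) in progenitors, 31.7 ± 1.68 in neurogenic cells, 20.4 ± 5.87 in cones, 19.8 ± 1.42 in cells labelled horizontal and 9.73 ± 0.410 in ganglion cells; cones and cells labelled horizontal did not differ beyond their spread. Gli3 was 22.5 ± 0.444, 16.9 ± 0.0336, 3.35 ± 1.46, 1.42 ± 1.06 and 2.63 ± 0.472 CPM in the same order, the last 3 within their spread. Gli2 was 15.4 ± 0.388 in progenitors, 13.0 ± 0.495 in neurogenic cells and 4.22 ± 0.914 in ganglion cells. Ptch1 was 12.3 ± 0.628, 10.4 ± 0.0189 and 6.21 ± 0.815 CPM in these 3 types in Bax null. In the 4 other libraries its order changed from library to library, with 14.7 ± 1.34 in progenitors, 16.0 ± 2.06 in neurogenic cells and 16.3 ± 0.0925 in ganglion cells of Bax het Atoh7 null, and 13.5 ± 1.53, 13.9 ± 0.0624 and 13.8 ± 0.218 for Bax null Atoh7 null. Relative to ganglion cells of the same library, Ptch1 in progenitors was therefore higher in Bax null than elsewhere. The interaction was -1.08 (adjusted p 0.00115) and -1.20 (adjusted p 0.000157), progenitors minus ganglion cells, for the 2 contrasts with Bax null.

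Bax null progenitors were not uniform in Gli1. Of 58 progenitor clusters compared in that group, the 8 highest (3003 cells) had 11.9 to 25.7 CPM and the 11 lowest (2709 cells) had 0 to 2.40 CPM, against 6.90 CPM in all Bax null progenitors. Clusters were made by the authors from all genes and these were picked on Gli1, so what follows is a description. Among the 10 leading genes of the high clusters were Nusap1, Prc1, Plk1, Ube2c, Aurkb, Hmmr and Cdk1, genes of mitosis, and among those of the low clusters Shisa2, Ccnd2, Hist1h2bc, Wfdc1, Aldh1a3, H19, Igf2 and Mab21l2.

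Ptch1 and Hhip, the other target genes among the members, went with Gli1 in both Bax null libraries. Ccnd2, a listed target outside the members, did not: it stood at 230 CPM in the low clusters and 79.6 CPM in the other progenitor clusters. Ptch1 stood at 17.0 and 17.5 CPM in the high clusters and at 7.16 and 8.10 CPM in the low clusters of replicates 1 and 2. Hhip stood at 2.95 and 4.25 against 0.671 and 0.507 CPM. The co-receptors went the other way, Gas1 at 22.5 and 23.5 against 37.7 and 30.2 CPM and Boc at 2.10 and 1.27 against 3.36 and 3.75 CPM. Smo (33.8 and 37.5 against 37.0 and 40.7 CPM) and Gli2 (13.8 and 13.7 against 15 and 17.4 CPM) were somewhat lower in the high clusters, and Gli3 (21.9 and 24.6 against 25.8 and 21.7 CPM) had no common direction.

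**Figure D5:**
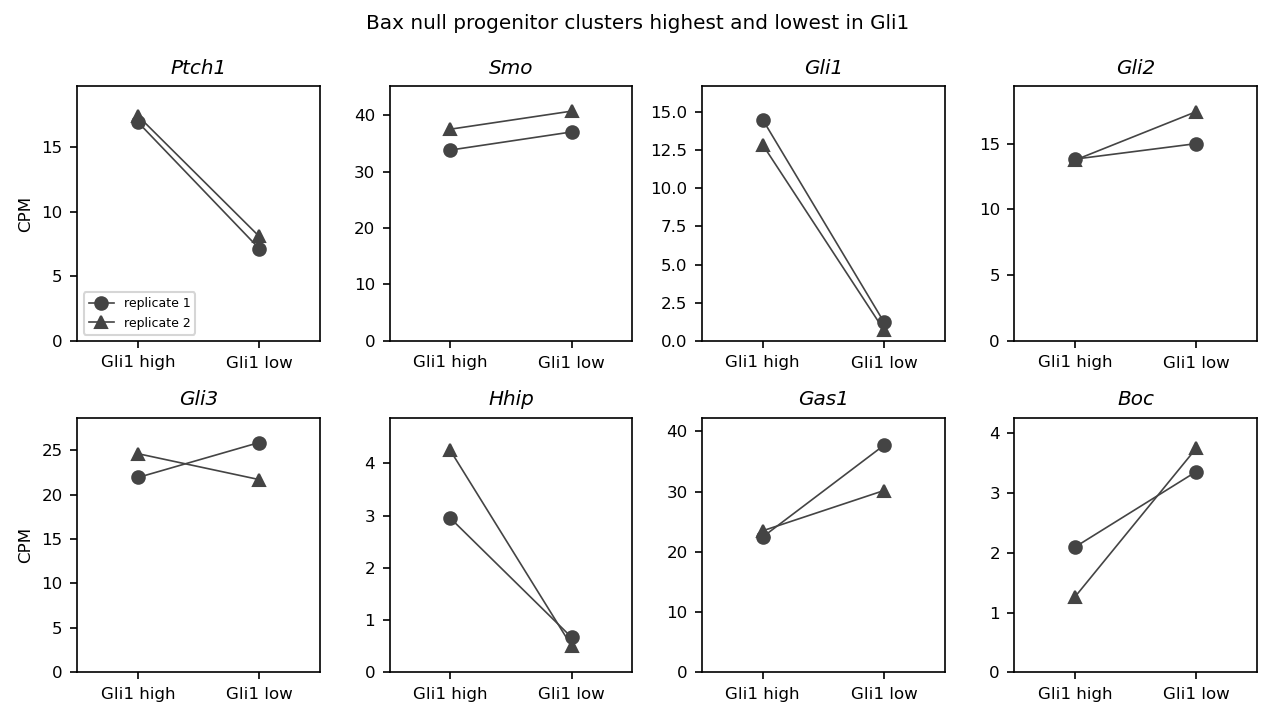
CPM of 8 members in the Bax null progenitor clusters highest and lowest in Gli1, for each of the 2 Bax null libraries, with axes from 0. Ptch1 and Hhip follow Gli1 downward in both libraries, Gas1 and Boc run the opposite way, and the lines for Gli3 cross.

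The same clusters were unevenly filled in the other groups. The high clusters held 25.8% and 25.9% of progenitors in Bax null and 2.58% to 2.71% in the other 4 libraries; the low clusters held 22.5% and 24.2% for Bax null and 8.58% to 11.5% elsewhere. Gli1 had 0 UMIs in the high and in the low clusters of all 4 Atoh7 null libraries. In the low clusters Bax null itself stood at 1.23 and 0.709 CPM. The 4 libraries held 1201755 to 2759244 UMIs in them, so a 0 in any 1 library says little. The high clusters of these 4 libraries held 381476 to 640877 UMIs, against 10495458 and 11059994 for Bax null. Ptch1 there was 12.9 and 17.3 CPM for Bax het Atoh7 null and 15.6 and 13.1 CPM for Bax null Atoh7 null, against 18.6 and 11.9, and 12.7 and 14.1 CPM in the low clusters, so in Ptch1 the 2 sets overlapped in libraries where neither held a Gli1 UMI; the values in the high clusters rest on 5 to 10 Ptch1 UMIs each.

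Over clusters of all 6 libraries, among the 5 genes most like Gli1 were Nr0b1 (0.62), Amd1 (0.62), Nkx6-2 (0.60) and Hist1h2ap (0.60). In the Bax null libraries alone they were Id4 (0.70), Fgf8 (0.68), Etv5 (0.68), Klf6 (0.66) and Id2 (0.66). For Ptch1 they were Ppp1r9a (0.57), Sox9 (0.56), Supt3 (0.56), M6pr (0.55) and Etv1 (0.55), and in Bax null alone Fermt2 (0.68), Pdpn (0.64), Ptpra (0.63), Ano1 (0.62) and Slc30a5 (0.61). For Hhip they were Zfp704 (0.58), Ebf4 (0.48), Slc7a11 (0.47), Chac1 (0.47) and Eif4ebp1 (0.44), of which Slc7a11 and Chac1 also led cluster 62, and in Bax null alone Fam69c (0.53), Dcps (0.52), Lrrc42 (0.50), Nr0b1 (0.49) and Gli1 (0.49).

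The other genes of the pathway were read in progenitors from fixed lists. Of 13396 genes tested there, 26.8% rose and 27.1% fell in Bax null Atoh7 null, and 26.6% rose and 26.5% fell in Bax het Atoh7 null. With library totals 9823 and 8972 of them were called, 90.6% and 90.1% of these higher. The counts of every list below are to be read beside these shares. Of the ligands and release factors, Ihh had 0 to 5 UMIs and Dhh 1 to 5 UMIs in each library and neither was tested. Of 4 tested genes of that list, 0 rose and 1 fell in Bax null Atoh7 null (Scube3, -0.56) and 2 fell in Bax het Atoh7 null (also Scube1, -1.54), with medians of -0.30 and -0.31 against 0.01 and 0.00 for all genes. With library totals 2 rose and 0 fell, and 1 rose and 1 fell, so the direction of these counts rests on the scaling. Of 7 genes of reception, 3 rose and 2 fell, and 1 rose and 2 fell; with library totals 5 rose and 1 fell, and 5 rose and 2 fell.

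Cdon, the co-receptor related to Boc, rose by 0.40 (adjusted p 0.0106) and was 0.20 higher (0.140). Evc2, a ciliary partner of Smo, rose by 0.71 (adjusted p 0.00141) and by 0.77 (0.000884), and Lrp2, an endocytic receptor for Shh, fell by 0.75 (0.00188) and by 0.93 (0.000655).

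Of 12 genes of transduction, 6 rose and 3 fell in Bax null Atoh7 null and 5 rose and 3 fell in Bax het Atoh7 null, with medians of 0.24 and 0.18; with library totals 8 rose and 1 fell, and 8 rose and 2 fell. Gpr161, a ciliary receptor that restrains the pathway, stood at 5.55 and 4.83 CPM (TMM-scaled) for Bax null and at 1.38 to 1.84 CPM in the other 4 libraries. It fell by 1.65 (SE 0.20, adjusted p 0.000145) and by 1.76 (SE 0.20, adjusted p 0.000125). Sufu, which holds Gli proteins in the cytoplasm, fell by 0.38 (adjusted p 0.0371) and by 0.45 (0.0199), but was 0.24 and 0.08 higher with library totals, neither called. Gsk3b and Spop, which promote Gli processing or turnover, rose by 0.68 and 0.81 (adjusted p 9.99e-05 and 0.000138) in Bax null Atoh7 null. Of 8 genes of the cilium, 2 rose and 1 fell, and 1 rose and 1 fell, but with library totals 7 rose and 0 fell, and 6 rose and 0 fell.

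Of 9 listed target genes, 1 rose and 4 fell in Bax null Atoh7 null, and 1 rose and 5 fell in Bax het Atoh7 null, with medians of -0.44 and -0.58. Of all genes tested, 26.8% rose and 27.1% fell in the first contrast, and 26.6% rose and 26.5% fell in the second. Hes1, which also answers to Notch, fell by 3.28 (SE 0.12, adjusted p 7.90e-08) and by 2.66 (SE 0.11, adjusted p 3.08e-07), and it was the only listed gene called between the Atoh7 null groups, by -0.62 (adjusted p 0.0232; 0.0520 with library totals). Mycn rose by 0.40 (adjusted p 0.00892) and by 0.81 (0.000192). The cyclin genes Ccnd1 and Ccnd2 had values of -0.24 (adjusted p 0.190) and -0.44 (0.0575) in Bax null Atoh7 null and of -0.32 (0.0903) and -0.69 (0.00872) in Bax het Atoh7 null, of which the last was called; with library totals Ccnd2 was at 0.20 and -0.15, neither called. With library totals 4 listed targets rose and 2 fell, and 3 rose and 2 fell; Hes1 fell under both scalings in both contrasts.

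Markers of other cells were summed in progenitors as a check on what the class holds. Retinal pigment epithelium markers summed to 8.76 and 10.1 CPM for Bax null and 2.97 to 4.69 CPM elsewhere, astrocyte and optic stalk markers to 7.78 and 9.42 against 3.08 to 4.14 CPM, lens markers to 1.5 and 1.46 against 0.171 to 0.640 CPM, and red blood cell markers to 290 and 252 against 6.19 to 131 CPM. Vascular markers ran the opposite way, at 40.3 and 42.5 against 72.9 to 77.2 CPM. Nearly all of that sum was Kdr, at 56.9 CPM over all progenitors, with Pecam1 at 0.721 CPM and Cdh5 and Cspg4 lower still. Ganglion cell markers also ran that way, at 90.8 and 83.8 against 130 to 159 CPM, and microglia markers overlapped. All these sums are plain CPM. Without TMM the median progenitor gene was already 0.64 and 0.54 higher, on the log2 scale, in the 2 contrasts with Bax null. These sums move with the Bax null group beside the members, and their part in the results was not tested.

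Positions are given in GRCm38 from GENCODE M21. Shh lies on chromosome 5 from 28456815 to 28467256, Ptch1 on 13 from 63508328 to 63573598, Gli1 on 10 from 127329882 to 127341974, Gli2 on 1 from 118834132 to 119053619, Hhip on 8 from 79965851 to 80058006, Gas1 on 13 from 60174405 to 60177365, and Boc on 16 from 44485049 to 44558897, all on the minus strand. Smo lies on chromosome 6 from 29735503 to 29761365 and Gli3 on 13 from 15463235 to 15730026, on the plus strand. Shh overlaps the opposite-strand genes 9530036O11Rik and Gm26894 (28 and 42 UMIs in all) and Gli1 overlaps Arhgap9 (16 UMIs), against 59 UMIs of Shh and 662 of Gli1; whether any of these reads were assigned to the wrong strand was not tested.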

How the data were processed

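Single-cell RNA-seq of mouse embryonic day 14 retina was analysed in 6 libraries of 3 groups. The deposited table holds raw UMI counts per gene and cell, with the authors' cell types and clusters; Cell Ranger 1.2.1 and the mm10 build are named in the submitters' processing notes, and how cells were filtered or doublets removed is not given in the sources used here. Another 2 libraries in the table (26078 of 93128 cells) belong to none of its samples and were left out.

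Counts were summed per library and cell type and tested with edgeR 4.0.16 in R 4.3.3 (filterByExpr, TMM scaling, quasi-likelihood F test, Benjamini-Hochberg adjustment over all genes tested), with all 6 libraries in 1 fit. The standard error is the size of the log2 fold change over the square root of F. DESeq2 1.42.0 was an alternative. Cell type shares were tested by an edgeR model of cell counts. Cells were thinned to 1000 or 2000 UMIs by seeded hypergeometric draws, leaving out shallower cells. Likeness used a pseudocount of 1 CPM. The scripts were tested on simulated data.

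Doublets were kept in the values reported; an alternative left out the 8% of cells with the highest Scrublet score (scanpy 1.11.5) in each library (5364 cells), and another the 2410 cells under 1000 UMIs. Libraries were not paired by replicate number in the main fit. Same-numbered deviations in progenitors correlated at 0.0146 and -0.0537 between Bax null and the Atoh7 null groups. Between the 2 Atoh7 null groups they correlated at 0.287, and at 0.320 in all cells, so a shared deviation there is not excluded. An exact permutation test of 2 libraries against 2 cannot go below 0.333333. The genes named are the members, the listed pathway genes and markers, Atoh7 and Bax, the 10 leading genes of each described set of clusters, and the 5 genes most like Shh, Gli1, Ptch1 and Hhip. Some genes these rules name are not reported here. The members and lists were chosen with earlier results of these data known. Library totals in place of TMM, leaving out shared barcodes and likeness in Bax null alone were chosen after seeing the data.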

Additional observations from a re-analysis of the deposited data

Results flagged for a closer look

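In 3 members the difference from Bax null was not the same in progenitors and in ganglion cells of the same libraries, by a test of the interaction of group and cell type (edgeR, Benjamini-Hochberg adjusted p). For Hhip, which fell in progenitors and rose in ganglion cells, the interaction was -6.12 in Bax null Atoh7 null (adjusted p 1.38e-12) and -5.47 in Bax het Atoh7 null (adjusted p 1.16e-08). For Ptch1 it was -1.08 (adjusted p 0.00115) and -1.20 (adjusted p 0.000157). For Smo, which was higher in both cell types but more so in ganglion cells, it was -0.63 (adjusted p 0.00960) and -0.64 (adjusted p 0.0130).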

How the results depend on the processing

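Hhip kept both progenitor calls under all 17 alternatives, and Gas1 and Gli2 kept theirs under 16 of 17. The exception was the difference between progenitors and ganglion cells within libraries. For Hhip that within-library contrast also takes in its rise in ganglion cells, so it is no check on the progenitor calls. It called 15.7% and 15.2% of all genes against Bax null. That contrast called 3 and 3 members against 6 and 5 and turned several signs: in Bax null Atoh7 null Smo -0.63, Gli1 0.80, Gli2 0.49, Gli3 -0.35, Gas1 -0.24 and Boc -0.51, in Bax het Atoh7 null Smo -0.64, Gli2 0.45, Gas1 -0.44 and Boc -2.22, and between the Atoh7 null groups Ptch1 0.12 and Hhip -0.65; it asks another question by construction. Library totals turned Ptch1 (0.12 and 0.25) and Gli3 in Bax het Atoh7 null (0.50). Gli3 in Bax null Atoh7 null, near 0, turned to -0.045 with thinned counts, -0.0059 without doublets and -0.0099 without shared barcodes, and lay between -0.079 and 0.090 with 1 library left out; Boc in Bax het Atoh7 null lay between -0.031 and 0.30. Between the Atoh7 null groups, where 0 members were called, Gli2 lay between -0.22 and 0.26, Gli3 between -0.041 and 0.13 and Boc between -0.093 and 0.36 with 1 library left out, Gli3 turned to -0.0069 with thinned counts, and Shh in all cells turned to -2.45 without shared barcodes.

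Leaving out 1 library at a time moved Shh in all cells between -7.50 and -2.89, -7.47 and -4.01, and -2.60 and 3.42 (the 2 contrasts with Bax null, then the Atoh7 null groups). In the same order, Shh in ganglion cells moved between -2.49 and -1.57, -2.93 and -2.0, and 0 and 0.88 CPM. The ganglion cell share moved between -1.13 and -0.83, -1.30 and -0.88, and -0.095 and 0.33. Shh in ganglion cells of Bax null Atoh7 null was -3.17 (adjusted p 0.0737) with DESeq2, and its difference in Bax het Atoh7 null was -3.13 CPM with thinned counts, against -2.47. Depth sets the share of positive cells: Shh in Bax null ganglion cells was 0.306% at 1000 UMIs, 0.524% at 2000 and 1.58% unthinned, and 0.0879% unthinned for Bax null Atoh7 null; Gli1 in progenitors was 0.731%, 1.44% and 4.27% for Bax null, 0.0134%, 0.0395% and 0.030% for Bax null Atoh7 null, and 0, 0.0103% and 0.0163% in Bax het Atoh7 null. Replicate numbers were not used as pairs in the main fit. With the replicate block 6, 4 and 0 members were called, Ptch1 in Bax het Atoh7 null being lost (-0.28, adjusted p 0.0562, edgeR). In the main fit 26.8% of all progenitor genes rose and 27.1% fell in Bax null Atoh7 null. In Bax het Atoh7 null 26.6% rose and 26.5% fell. The shares of all genes with the replicate block are not given here, so its counts say little about the list by themselves. The cause was not tested for the other changes.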
